A study of Homo sapiens with 6 samples.

Results

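The genes of the hemidesmosome and of basal epithelial identity were followed in C4-2B-ENZR cells, a human prostate cancer cell line resistant to the androgen receptor blocker enzalutamide. The set held 8 genes chosen by symbol, namely COL17A1, ITGA6, ITGB4, DST, LAMA3, LAMB3, NGFR and TP63, and all 8 were among the 17356 symbols of the files. Of the 6 RNA-seq libraries, 3 were labelled as cells given an siRNA against KIF15, a mitotic kinesin (siKIF15), and 3 as cells given a negative control siRNA (NC). Both groups were the same line in the same serum-containing medium; the labels do not say whether enzalutamide was present, how long cells were transfected, or whether replicates were separate cultures. The p-values here rest on library-to-library spread alone, which may be technical.

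Hemidesmosomes are the junctions by which basal epithelial cells hold on to the basement membrane. Integrin alpha 6 beta 4 (ITGA6 and ITGB4) and collagen XVII (COL17A1) cross the cell membrane, the plakins DST and plectin tie them to keratin filaments inside the cell, and laminin 332, which contains the LAMA3 and LAMB3 chains, is the ligand outside. In the prostate these genes, with the transcription factor gene TP63 and the p75 neurotrophin receptor gene NGFR, mark the basal layer, whereas prostate adenocarcinoma cells are mostly of luminal type.

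Each file gave 1 value per gene, called signal here; it looks like counts adjusted by the authors to a common library size, and its depth is unknown. Library sums were 50360191 to 53157388 in the siKIF15-labelled libraries and 49460840 to 50063012 in the NC libraries. Log2 changes compare siKIF15 with NC, siKIF15 minus NC, on log2(signal + 1), where low genes show less than their full change, and a gene was called at a limma Benjamini-Hochberg adjusted p under 0.05. The targeted gene, KIF15, was not lower beyond the spread of the libraries, with 295, 333 and 363 in the siKIF15-labelled libraries and 366, 404 and 319 in the NC libraries (log2 change -0.13, adjusted p = 0.565). Every direction below is therefore that of the libraries labelled siKIF15. In bulk RNA, fewer cells of a type and less RNA per cell cannot be told apart.

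The set split in direction. COL17A1, NGFR, LAMB3 and ITGB4 rose, LAMA3, ITGA6 and DST fell, and TP63 did not pass the test. Thus 7 of the 8 genes were called, against 18% of the 16548 genes tested, with 4 higher (9.66% of all genes) and 3 lower (8.33% of all genes). The members were chosen with earlier results of these data known, so this comparison describes the set and does not test it. The same 7 genes had no overlap between the groups, which held for 34.8% of all genes. When the libraries were scaled to equal totals, 1205 genes were higher and 1753 lower over the whole table, against 1599 and 1379 as deposited, and the members' calls and directions were unchanged. All 8 genes passed the filter on low values, which asked for a group mean of 1 or more in either group. TP63 passed it through the siKIF15-labelled libraries alone (mean 2.07, against 0.78 in the NC libraries).

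**Figure D1:**
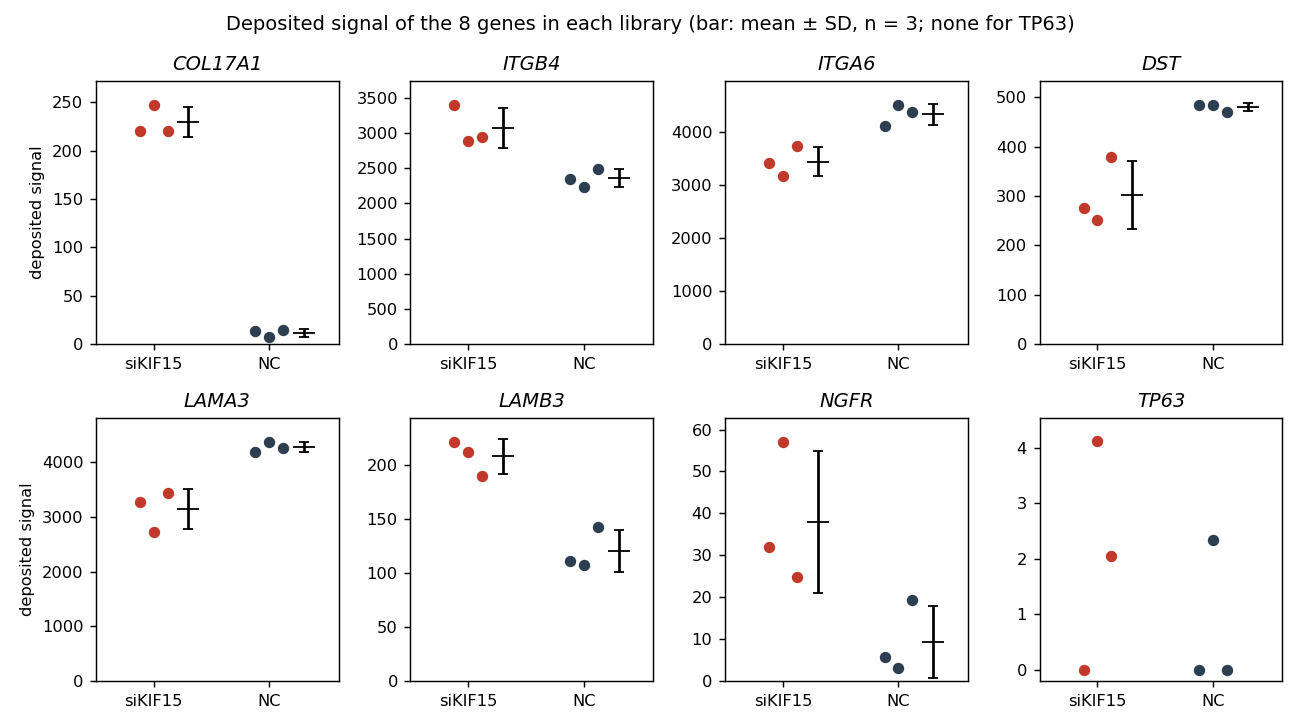
Deposited signal (vertical axis, from 0, a scale per gene) of each gene in each siKIF15-labelled library (red, left) and NC library (dark, right), with the mean and SD of 3 libraries beside them for all genes but TP63. The groups are apart for every gene except TP63, and COL17A1 shows the widest relative gap, with 221 or more in the siKIF15-labelled libraries and 14.3 or less in the NC libraries.

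COL17A1 encodes collagen XVII (BP180), the transmembrane collagen of the hemidesmosome. Its signal was 221, 247 and 221 in the siKIF15-labelled libraries and 13.8, 6.97 and 14.3 in the NC libraries. All 3 siKIF15-labelled libraries were alike, and each was far above each NC library. In log2 this was 4.24 ± 0.29 (SE), with a 95% interval of 3.62 to 4.86 and a limma adjusted p of 4.48e-08, which placed COL17A1 at rank 73 from the top among the 16548 genes tested. The call held in every one of its 15 alternatives, with values from 3.85 to 4.41.

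The stretch upstream of the start of COL17A1 is shown because this gene changed most among the 8. It lies on the minus strand at chr10:104085958-104086130 (GRCh38.p14, RefSeq), 250 to 78 bases before the RefSeq start and upstream of the exon annotated in GENCODE 29. Capitals mark 2 matches. The first is TTTCCTTTTC, which on the other strand reads as the interferon regulatory factor motif (GAAA, any 2 bases, GAAA). The second is the TATA motif TATAAA, at 206 to 201 bases before the start.
COL17A1: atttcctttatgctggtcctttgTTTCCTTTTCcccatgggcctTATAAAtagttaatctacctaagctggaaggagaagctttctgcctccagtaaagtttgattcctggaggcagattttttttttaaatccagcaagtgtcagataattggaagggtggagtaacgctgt
In the 250 bases before the start, searched on both strands, the first motif occurred in 3.02% and TATAAA in 10.7% of the 35116 RefSeq promoters. A match describes letters only, and no binding was measured.

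ITGB4 and ITGA6 encode the 2 chains of the hemidesmosomal integrin, and they moved in opposite directions. ITGB4, the beta chain with the long cytoplasmic tail, had 3398, 2886 and 2937 in the siKIF15-labelled libraries and 2350, 2231 and 2495 in the NC libraries. Replicate 1 was the highest of the siKIF15-labelled libraries, and the lowest of these lay above the highest NC library. On the log2 scale ITGB4 rose by 0.38 ± 0.08 (SE), with a 95% interval of 0.20 to 0.56 and a limma adjusted p of 0.00492. ITGA6, the alpha chain, had 3415, 3182 and 3739 in the siKIF15-labelled libraries and 4126, 4514 and 4382 in the NC libraries. Here every siKIF15-labelled library lay below every NC library, and replicate 3 came nearest to them. ITGA6 changed by -0.34 ± 0.08 in log2 (SE), with a 95% interval of -0.50 to -0.17 and a limma adjusted p of 0.00676. Both calls ended without NC 2 (adjusted p = 0.0547 for ITGB4 and 0.0646 for ITGA6) or without siKIF15 1 (0.0607 and 0.0646). Part of ITGB4 overlaps GALK1 on the other strand, and strand use in counting is not given in the sources used here; GALK1, a galactokinase gene, averaged 2611 ± 335 in the siKIF15-labelled libraries and 2588 ± 140 in the NC libraries (SD, n = 3 each) and was not called (log2 change 0.01, limma adjusted p = 0.973).

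Within each library the ratio of ITGB4 to ITGA6 does not depend on how libraries were scaled. It was 99.5%, 90.7% and 78.6% in the siKIF15-labelled libraries and 57.0%, 49.4% and 56.9% in the NC libraries, on the signal scale. Every siKIF15-labelled library was above every NC library. Divided by the length of the longest coding transcript (5.92 kb for ITGB4 and 5.62 kb for ITGA6), the ratio was 94.4%, 86.1% and 74.6% in the siKIF15-labelled libraries and 54.1%, 46.9% and 54.0% in the NC libraries. The beta chain thus stood below the alpha chain per length in all 6 libraries. These ratios follow from the changes above and were given no test.

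**Figure D2:**
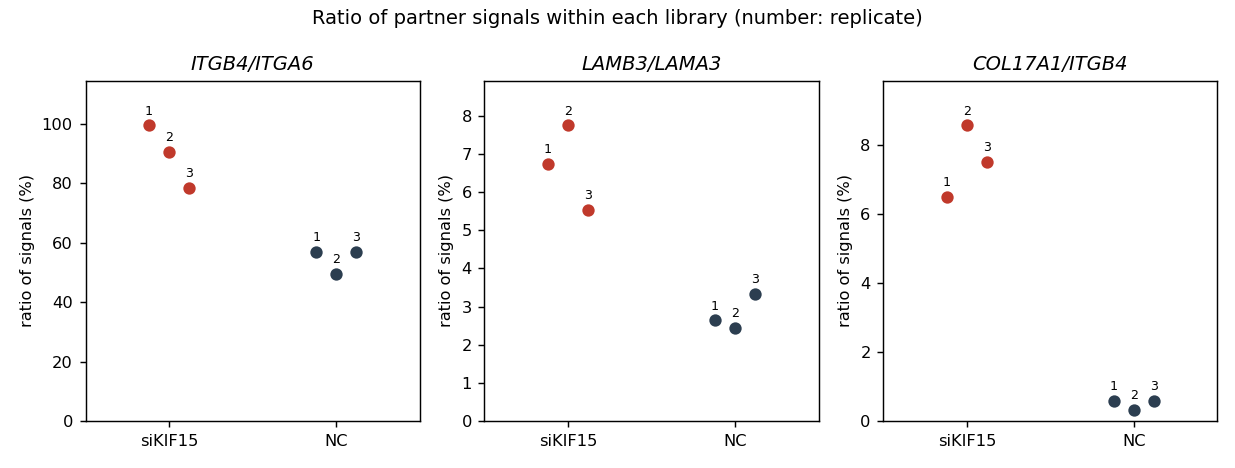
Ratio of 2 signals within each library, in percent (vertical axis, from 0), for ITGB4 over ITGA6, LAMB3 over LAMA3 and COL17A1 over ITGB4, with siKIF15-labelled libraries in red at the left and NC libraries in dark at the right, numbered by replicate. Each ratio is higher in every siKIF15-labelled library than in every NC library; for COL17A1 over ITGB4 it is 6.50% to 8.57% in siKIF15-labelled and 0.312% to 0.586% in NC libraries.

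DST encodes dystonin, whose epithelial form BPAG1e (BP230) is the plakin of the hemidesmosomal plaque; other forms serve neurons and muscle, and the files give 1 value for all forms. The signal was 276, 251 and 379 in the siKIF15-labelled libraries and 484, 484 and 470 in the NC libraries. The NC libraries were close together, while siKIF15 3 stood nearer to them than the other two. The change of DST in log2 was -0.69 ± 0.15 (SE), its 95% interval -1.01 to -0.37 and its limma adjusted p 0.00506. Without siKIF15 3 the change was -0.86, and it was no longer called once siKIF15 1 was left out (-0.63, adjusted p = 0.0689). None of the 6 other plakin genes passed in the values as deposited. Plectin (PLEC), the partner of DST in the plaque, averaged 27348 ± 3301 in the siKIF15-labelled libraries and 28370 ± 1407 in the NC libraries (SD, n = 3 each; log2 change -0.06, limma adjusted p = 0.686). After removal of GC content and transcript length trends, described further on, PLEC was called higher (0.23, adjusted p = 0.00155), as was DSP, the desmoplakin gene (0.31, adjusted p = 0.00052). MACF1, another plakin gene, was called lower without siKIF15 3.

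LAMA3 and LAMB3, chains of laminin 332, also moved apart. LAMA3, the alpha chain, had 3280, 2733 and 3433 in the siKIF15-labelled libraries and 4196, 4381 and 4266 in the NC libraries. Replicate 2 was the lowest of the siKIF15-labelled libraries, and none reached the NC range. LAMA3 changed by -0.45 ± 0.08 in log2 (SE; interval at 95% from -0.63 to -0.27), with a limma adjusted p of 0.00172, and the call held without each single library. LAMB3, the beta chain, had 221, 212 and 190 in the siKIF15-labelled libraries and 111, 107 and 142 in the NC libraries. The lowest siKIF15-labelled library was above the highest NC library, which was replicate 3. LAMB3 rose by 0.79 ± 0.18 in log2 (SE; interval at 95% from 0.41 to 1.18), with a limma adjusted p of 0.00629; leaving out siKIF15 1 ended the call (0.75, adjusted p = 0.0634).

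Per kb of transcript, the alpha chain exceeded the beta chain in every library. LAMA3 per kb was 5.99, 5.21 and 7.30 times LAMB3 per kb in the siKIF15-labelled libraries and 15.3, 16.5 and 12.1 times in the NC libraries. On the signal scale, LAMB3 was 6.75%, 7.76% and 5.53% of LAMA3 in the siKIF15-labelled libraries and 2.64%, 2.45% and 3.34% in the NC libraries. The LAMB3 to LAMA3 ratio was therefore higher in each siKIF15-labelled library than in each NC library.

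The stretch before the third RefSeq start of LAMB3 is shown for its AP-1 match, since LAMA3 also carries this motif. It lies on the minus strand at chr1:209651395-209651624 (GRCh38.p14), 250 to 21 bases before that start, and capitals mark TGANTCA, the site of AP-1 (FOS and JUN) dimers.
LAMB3: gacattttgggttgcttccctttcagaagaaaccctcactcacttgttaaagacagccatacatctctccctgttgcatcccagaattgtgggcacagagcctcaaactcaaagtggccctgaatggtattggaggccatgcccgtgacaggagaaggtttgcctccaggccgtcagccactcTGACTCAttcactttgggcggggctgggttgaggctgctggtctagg
The LAMA3 start held 2 such matches, at 125 to 119 and 69 to 63 bases before it, and 6.57% of the 35116 promoters held at least 1. LAMA3 and LAMB3 changed in opposite directions. The other 2 LAMB3 starts and the starts of ITGA6, DST, TP63 and COL17A1 held no TGANTCA in their 250 bases. TTCNNNGAA (a STAT motif, 6.57% of promoters) occurred before no start of the 6 members in the table. The promoters of ITGB4 and NGFR were not used here.

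NGFR encodes the p75 neurotrophin receptor, a surface marker of basal prostate epithelium and of neural crest cells. The signal was 32.0, 57.1 and 24.9 in the siKIF15-labelled libraries and 5.72, 3.20 and 19.2 in the NC libraries. These are low values, and siKIF15 3 and NC 3 lay close together. NGFR rose by 2.15 ± 0.53 in log2 (SE), with a 95% interval of 1.02 to 3.27 and a limma adjusted p of 0.0105. The call ended without NC 2, siKIF15 1 or siKIF15 2 (adjusted p = 0.0873, 0.0878 and 0.0564). Of 6 neural crest and Schwann cell markers none was called (median -0.01, and -0.50 to 0.16 without single libraries). FOXD3 was called lower without NC 1, and ERBB3 higher after removal of GC and length trends (0.11, adjusted p = 0.0339). SOX10 had 5.48, 2.11 and 2.08 in the siKIF15-labelled libraries and 6.16, 4.98 and 0 in the NC libraries. The list's sum, nearly all of it ERBB3, was 13298 to 14441 in the siKIF15-labelled libraries and 13491 to 13760 in the NC libraries, and 4 of the 6, SOX10 and GFAP among them, had means under 10.

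TP63 encodes p63, the transcription factor that defines basal cells. It was listed at 0, 4.13 and 2.06 in the siKIF15-labelled libraries and at 0, 2.34 and 0 in the NC libraries. The groups overlapped at the floor of the values, and no fold is given (log2 change 0.74, 95% interval -1.14 to 2.63, limma adjusted p = 0.618). A value at the floor is not read as absence, since the depth is unknown. KRT5, the keratin paired with KRT14 in basal cells, was also low, at 2.66, 5.17 and 1.06 in the siKIF15-labelled libraries and 0 in the NC libraries. Unlike those of TP63, its groups did not overlap, which held for 34.8% of all genes, but it was not called (log2 change 1.85, 95% interval 0.16 to 3.54, limma adjusted p = 0.126). KRT5 passed the low-value filter through the siKIF15-labelled libraries alone, and beside NC values of 0 any trace of signal keeps the groups apart.

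**Figure D3:**
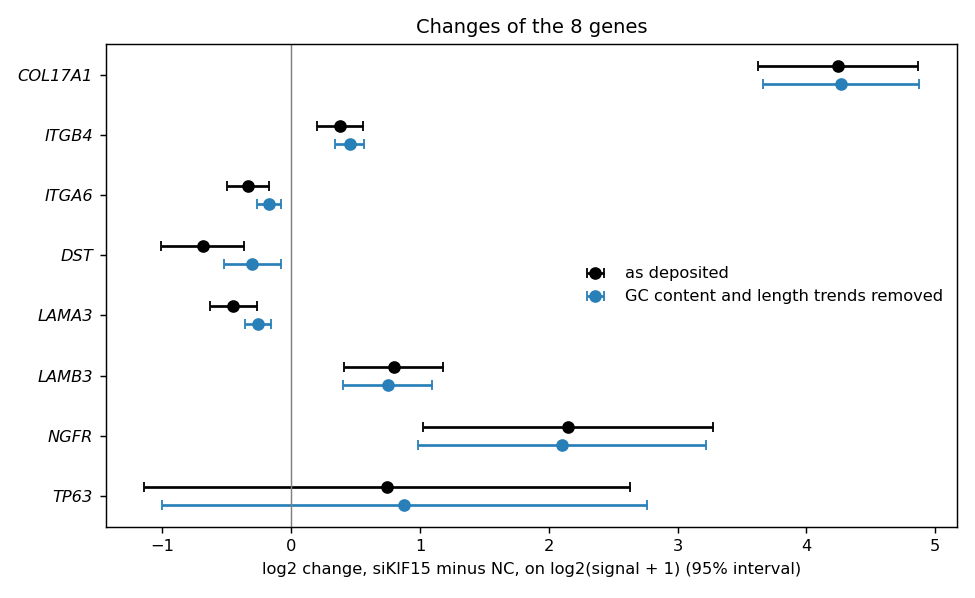
Log2 change of each gene (horizontal axis, siKIF15 minus NC on log2(signal + 1)) with its 95% interval, from the values as deposited (black) and after removal of GC content and transcript length trends (blue). The intervals exclude 0 for all genes but TP63 in both analyses, and the 3 falls are smaller in blue (DST -0.69 and -0.30).

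Ordered by mean signal per kb, the set ran ITGA6, ITGB4, LAMA3, LAMB3, COL17A1, DST, NGFR and TP63 in the siKIF15-labelled libraries, at 613, 519, 295, 48.3, 40.4, 13.5, 11.1 and 0.421. The lengths are those of the longest coding transcripts (22.4 kb for DST). A shorter form would give a higher value per kb, so the order depends on this choice. In the NC libraries the means per kb were 773 for ITGA6, 402 for LAMA3, 399 for ITGB4, 27.9 for LAMB3, 21.4 for DST, 2.74 for NGFR, 2.05 for COL17A1 and 0.159 for TP63. COL17A1 thus stood beside LAMB3 in the siKIF15-labelled libraries but beside NGFR in the NC libraries, where LAMA3 and ITGB4 were neighbours within their spread (SD of 93.2 and 132 in signal).

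The 3 falls and the 4 rises also differed in sequence composition. In their longest coding transcripts, ITGA6, DST and LAMA3 had a GC content of 42.9%, 41.3% and 50.7%, while COL17A1, LAMB3, ITGB4 and NGFR had 55.9%, 58.9%, 63.7% and 62.8%. DST and LAMA3 were also the longest, at 22.4 and 10.7 kb. Each siKIF15-labelled library was also set against the NC mean over 13376 genes, which come from the same libraries. Spearman's rho between this change and GC content was 0.42, 0.40 and -0.08 for siKIF15 1, 2 and 3, and that with length was -0.28, -0.46 and -0.07. The part of these trends in the results was not tested beyond the following removal. After these trends were removed, an analysis chosen after seeing the data, all 7 calls and directions held, against 26.9% of the 16039 genes then tested. The falls became smaller, with log2 changes of -0.30 for DST (adjusted p = 0.0423), -0.26 for LAMA3 and -0.17 for ITGA6. The rises moved little, to 4.27 for COL17A1, 2.10 for NGFR, 0.75 for LAMB3 and 0.45 for ITGB4.

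**Figure D4:**
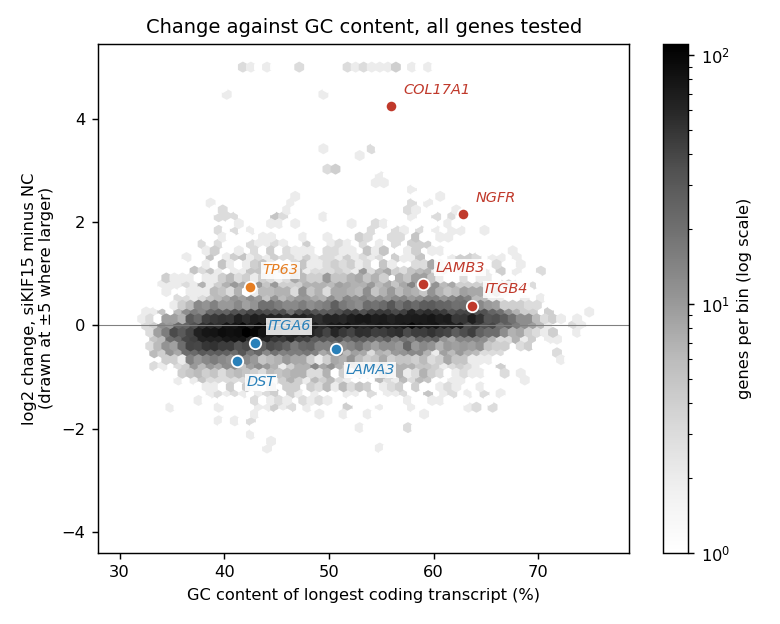
Log2 change (vertical axis, values beyond the axis limits drawn at the limit) against the GC content of the longest coding transcript in percent (horizontal axis), with all genes tested as grey bins (log colour scale) and the 8 genes as points (red higher, blue lower, orange not called). The genes that fell, at 41.3% to 50.7%, lie to the left of those that rose, at 55.9% to 63.7%.

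Lists are counted by the genes found in the files. They were chosen with earlier results of these data known, and over all genes tested 9.66% were higher and 8.33% lower. Among 14 anchoring partners of the hemidesmosome, 4 rose and 2 fell, among them ERBIN (median log2 change -0.14, beside 0.00 over all genes). CD151, the tetraspanin that binds laminin-binding integrins, averaged 25187 ± 2630 in the siKIF15-labelled libraries and 18436 ± 407 in the NC libraries (SD, n = 3 each; log2 change 0.45, limma adjusted p = 0.00103). COL4A6, a basement membrane collagen chain, had 605 or more in each siKIF15-labelled library and 444 or less in each NC library (log2 change 0.54, adjusted p = 0.00342). KRT14, a keratin of basal cells, had 54.0, 51.1 and 33.2 in the siKIF15-labelled libraries and 2.15, 18.1 and 9.47 in the NC libraries (log2 change 2.43, adjusted p = 0.00518), although reads of near-identical keratin copies may be shared. ITGA3, the alpha chain of a second laminin 332 receptor, rose by 0.32 (adjusted p = 0.0104). ERBIN, which binds the ITGB4 tail, averaged 2548 ± 537 in the siKIF15-labelled libraries and 3446 ± 135 in the NC libraries (log2 change -0.46, limma adjusted p = 0.0109). COL7A1, the anchoring fibril collagen, was not called (log2 change -0.21, adjusted p = 0.633). Without single libraries, 2 to 4 partners were higher and 0 to 4 lower; KRT14 lost its call without siKIF15 1, ERBIN without NC 2 or siKIF15 1 and after removal of the GC and length trends (-0.11, adjusted p = 0.115), and ITGA3 without NC 1, NC 2 or siKIF15 1.

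The relatives of the integrins and laminins mostly did not pass. Of 19 other integrin chains, ITGA3 rose and ITGAV fell (median -0.16, but 0.06 without NC 2 and 0.03 after removal of the GC and length trends). ITGAV, the alpha chain of vitronectin receptors, fell by 0.44 (adjusted p = 0.00503), and its call ended without NC 2 or siKIF15 1. ITGB1, the beta partner of most alpha chains, did not pass in the values as deposited (log2 change -0.25, adjusted p = 0.0537). It was called lower with either other scaling (equal totals or median-ratio size factors), without siKIF15 3, and after removal of the GC and length trends (-0.14, adjusted p = 0.0327). Of 10 other laminin chains 2 fell, among them LAMC1, and none rose (median -0.25); the LAMC1 call (-0.24, adjusted p = 0.0358) ended without any one of NC 1, NC 2, NC 3, siKIF15 1 and siKIF15 2. None of 5 other transmembrane collagens and sheddases rose and 2 fell, namely ADAM9 (-0.44, adjusted p = 0.00242) and ADAM10 (-0.40, adjusted p = 0.00665), proteases that can shed the collagen XVII ectodomain. Their calls ended without siKIF15 1, that of ADAM10 also without NC 2, and after removal of the GC and length trends ADAM10 stood at -0.05 (adjusted p = 0.516) and LAMC1 at -0.07 (adjusted p = 0.186).

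Around NGFR, 3 of 13 neurotrophin and p75 pathway genes rose and none fell, beside 9.66% and 8.33% of all genes. The list's median was 0.14, but -0.02 after removal of the GC and length trends. RIPK2, a kinase that binds p75, averaged 1561 ± 93.3 in the siKIF15-labelled libraries and 1048 ± 44.3 in the NC libraries (SD, n = 3 each; log2 change 0.57, limma adjusted p = 0.000298). The p75-binding proteins MAGED1 and BEX3 rose by 0.22 and 0.21, and both calls ended when any library but siKIF15 3 was left out and with equal totals. After that removal BEX3 stood at -0.04 (adjusted p = 0.476). SORT1, the sortilin coreceptor of p75, was not called (log2 change -0.20, adjusted p = 0.18) but was called lower without siKIF15 3.

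Around TP63, 3 of 13 p63 relatives and epithelial p63 targets rose and none fell, with a median of 0.00; with equal totals 3 were higher and 2 lower. SFN (14-3-3 sigma), a cell cycle checkpoint protein of epithelia, had 1116, 1370 and 1087 in the siKIF15-labelled libraries and 22.5, 37.9 and 37.1 in the NC libraries (log2 change 5.18 ± 0.20 SE, limma adjusted p = 2.93e-11). PERP, a desmosome protein gene that p63 can activate, averaged 7218 ± 443 in the siKIF15-labelled libraries and 3321 ± 59.2 in the NC libraries (log2 change 1.12, adjusted p = 1.4e-08). TRIM29, a basal marker, averaged 143 ± 19.6 in the siKIF15-labelled libraries and 71.4 ± 3.0 in the NC libraries (log2 change 0.98, adjusted p = 0.00351). These 3 calls held in all of their 15 alternatives. TP73, a relative of TP63, was not called (log2 change 0.02).

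Of 14 tested further basal markers (15 listed), KRT17, TRIM29 and KRT14 rose and EGFR fell, with a median of 0.38 that was -0.03 without siKIF15 2. KRT17 was listed at 39.6, 37.5 and 23.9 in the siKIF15-labelled libraries and at 0 in the NC libraries, and its near-identical copies leave the value uncertain. KRT17 passed the filter on low values through the siKIF15-labelled libraries alone. KRT16, another keratin gene, had 1989, 2285 and 1855 in the siKIF15-labelled libraries and 5.2, 0.23 and 5.73 in the NC libraries. Whether reads of KRT16 were counted for KRT14 or KRT17 was not tested. EGFR, the epidermal growth factor receptor gene, averaged 8271 ± 2132 in the siKIF15-labelled libraries and 11767 ± 692 in the NC libraries (log2 change -0.54, adjusted p = 0.013), a call that ended without NC 2, NC 3 or siKIF15 1. CDH3, which encodes P-cadherin, was not called (log2 change -0.03, adjusted p = 0.855). Summed over the list, the signal was 7458 to 11187 in the siKIF15-labelled libraries and 12587 to 13995 in the NC libraries, most of it EGFR.

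Of 14 luminal markers 5 rose (ACPP, KLK2, KRT8 and KRT18 among them) and 1, TMPRSS2, fell, with a median of 0.23. ACPP, the prostatic acid phosphatase gene, averaged 2118 ± 111 in the siKIF15-labelled libraries and 1009 ± 22.8 in the NC libraries (log2 change 1.07, limma adjusted p = 1.71e-07). KLK2, a prostate kallikrein gene, rose by 0.60 (adjusted p = 5.43e-05), and the luminal keratin gene KRT8 by 0.35 (adjusted p = 0.00911). The luminal sum was 337361 to 359073 in the siKIF15-labelled libraries and 312217 to 322048 in the NC libraries. Without single libraries 2 to 6 were higher. KRT8 lost its call without NC 2 or siKIF15 1, and TMPRSS2 without NC 1, NC 2, NC 3 or siKIF15 1, as did KRT18, which also lost it without siKIF15 2 and after removal of the GC and length trends (0.11, adjusted p = 0.0955).

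Genes of 2 other kinds of cell junction, desmosomes and focal adhesions, were also listed. Of 11 desmosome genes 9 were tested, and PERP rose and DSG2, a desmosomal cadherin gene, fell (-0.42, limma adjusted p = 0.00629). The DSG2 call ended without NC 2 or siKIF15 1. The desmosome median was 0.14, and after removal of the GC and length trends 4 desmosome genes were higher and 1 lower. Of 13 focal adhesion genes, PXN rose and 4 fell (TNS1, FERMT2, ZYX and VCL), with a median of -0.23. TNS1, a tensin gene, averaged 1103 ± 87.6 in the siKIF15-labelled libraries and 1587 ± 41.0 in the NC libraries (SD, n = 3 each; log2 change -0.53, limma adjusted p = 0.000669), and FERMT2, an integrin activator gene, fell by 0.53 (adjusted p = 0.00347). Both held without each single library, whereas the calls of ZYX (-0.25, adjusted p = 0.0219) and PXN (0.21, adjusted p = 0.0458) ended without NC 1, NC 2, NC 3 or siKIF15 1, and that of VCL (-0.26, adjusted p = 0.0323) also without siKIF15 2 and after removal of the GC and length trends (-0.12, adjusted p = 0.0662). PXN was also not called with equal totals or median-ratio size factors.

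**Figure D5:**
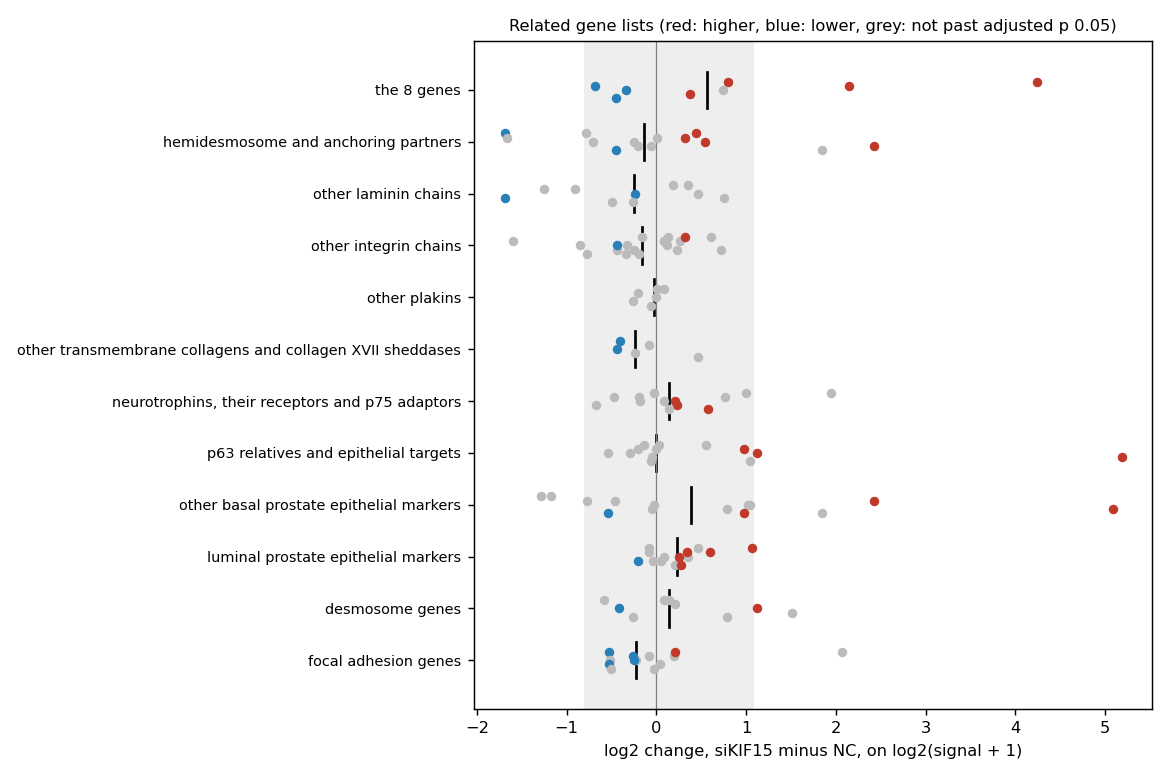
Log2 change (horizontal axis, siKIF15 minus NC on log2(signal + 1)) of each tested gene in the 8-gene set and in the related lists (vertical axis), red where higher, blue where lower and grey where not called; black bars are list medians and the grey band spans the 5th to 95th percentile of all genes, -0.80 to 1.08. Of the called genes, COL17A1 and NGFR lie to the right of the band, as do SFN, PERP, KRT17 and KRT14. Other genes lie beyond it on both sides, among them KRT5 (1.85) and NID1 (-1.67), which were not called.

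Some markers of other cell types changed in the same libraries. Of 10 fibroblast markers 9 were tested (median -0.20, and 0.57 without NC 2), and 8 of the 10 had means under 10 in both groups. FAP and PDGFRA rose to 7.28 or less and none fell. Both passed the filter on low values through the siKIF15-labelled libraries alone (NC mean 0.78 each). The list's sum was 463 to 515 in the siKIF15-labelled libraries and 502 to 530 in the NC libraries, most of it COL1A1. Without NC 1, NC 3, siKIF15 1 or siKIF15 2 the FAP and PDGFRA calls ended, and that of PDGFRA also without siKIF15 3. Of 8 leukocyte markers HLA-DRA, CD74 and CD68 rose and none fell (median 0.70), and the sum was 3330 to 3995 in the siKIF15-labelled libraries and 1686 to 1925 in the NC libraries, mostly CD68. PTPRC, which marks all leukocytes, was at 0 in the siKIF15-labelled libraries and at 3.85 or less in the NC libraries. None of the 5 tested endothelial markers (6 listed) was called, with sums of 431 to 497 in the siKIF15-labelled libraries and 374 to 431 in the NC libraries. The part of these markers in the results was not tested.

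The genes most like each member over the 6 libraries were searched among 13810 genes by Pearson correlation of log2(signal + 1); since 2 groups of 3 fix most of such a correlation, it is a description of levels only. Nearest to COL17A1 were IRF9 (r = 0.9998) and KRT16 (0.9995). For DST they were SLC25A36 and ASPH (0.9991 and 0.9988), for LAMA3 DIP2B and TJP1 (0.9985 and 0.9981), and for ITGA6 CNOT7 and ATR (0.9984 and 0.9974). ITGB4 was nearest to RNF43 and GTPBP2 (0.9975 and 0.9971), LAMB3 to MUC21 and CTSE (0.9955 and 0.9951), and NGFR to BCKDHA and HILPDA (0.9902 and 0.9896). IRF9 had 1411, 1493 and 1437 in the siKIF15-labelled libraries and 336, 256 and 347 in the NC libraries. The search asked for a mean of at least 10 in either group. KRT16, MUC21 and CTSE reached it through the siKIF15-labelled libraries alone, so their likeness to a gene that rose was largely set by this filter. In the NC libraries KRT16 had 5.73 or less, and MUC21 and CTSE had 1.93 or less. NGFR also reached that mean through the siKIF15-labelled libraries alone (NC mean 9.38).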

How the data were processed

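Each deposited file (1 per library, 17356 symbols) holds a signal for every gene symbol, under a header that gives no unit. The submitters' processing notes name Bowtie 0.12.2 and 2 mouse builds (mm9 and mm8), while the line is human; the human build, the annotation and the normalization are not given in the sources used here. From the values, the deposited signal resembles counts adjusted to a common library size, with a floor at or just above 0; reads were not recovered and no count model was used.

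limma 3.58.1 (R 4.3.3) with a variance trend was fitted on log2(signal + 1) to all 6 libraries (3 siKIF15, 3 NC, grouped by sample title), with no covariate, over genes whose group mean reached 1 in either group, and p-values were adjusted over all genes by the Benjamini-Hochberg method. The procedure was tested on simulated counts that carried no GC or length trends, so that test does not cover the trends seen in these libraries. Lengths and GC content came from the longest coding transcript in GENCODE 29, and promoters from RefSeq GRCh38.p14, which held 6 of the 8 members. Alternatives covered the pseudocount, the filter, scaling, the variance trend, a replicate block, each library left out, and the removal of GC and length trends by natural splines per library, which was added after seeing the data. The members and the 15 gene lists were chosen with earlier results of these data known. Named genes are the 8 members, KIF15, up to 4 called genes per list with the smallest adjusted p, and the 2 genes most correlated with each member of mean at least 10; uncalled list genes, KRT18, TMPRSS2, PXN and GALK1 were named after their values were seen. Lengths apply to per-kb levels, and no isoforms were resolved. Values of some list genes are not reported here.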

Additional observations from a re-analysis of the deposited data

How the results depend on the processing

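Directions of the 8 genes were the same under every alternative run, and COL17A1 kept its call in all 15. Without the variance trend the calls of LAMA3 (-0.45, adjusted p = 0.0722), ITGA6 (-0.34, 0.0892), ITGB4 (0.38, 0.0829), DST (-0.69, 0.0793) and NGFR (2.15, 0.126) ended, leaving 2 members higher and 0 lower; COL17A1 and LAMB3 were the 2. Over all genes that fit called 760 higher and 310 lower, and the removal of GC and length trends called 2478 higher and 1839 lower. Leaving out single libraries gave 767 to 2537 genes higher and 417 to 2540 lower, with 1 to 4 members higher and 1 to 3 lower. The log2 changes then ranged from 0.72 to 0.92 for LAMB3, from -0.40 to -0.28 for ITGA6, from 0.31 to 0.42 for ITGB4, from -0.86 to -0.57 for DST and from 1.66 to 2.79 for NGFR. The members' count was lowest without siKIF15 1 (1 higher, COL17A1, and 1 lower, LAMA3), and 2 were higher without NC 2. The replicate block changed no member's call and gave 1654 genes higher and 1530 lower. Same-numbered libraries had deviations correlated at 0.03, -0.06 and 0.02 (replicates 1, 2 and 3). These deviations also carry GC and length trends particular to each library, so whether the numbers pair the libraries cannot be told from them. KIF15 was not called in any alternative (-0.22 to 0.01). TP63 was not tested with a minimum mean of 10. Of the 31 called list genes examined, 18 lost their call without the variance trend. Under the replicate block ITGB1 was called lower, and PXN, BEX3 and TMPRSS2 were not called. The depth is unknown, so no limit from counting was computed.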
